A study of Macaca fascicularis with 3 samples.

Results

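Nuclei of the extraocular muscle (EOM) of the cynomolgus macaque (Macaca fascicularis) that held much MYH15 RNA and little MYH7 RNA were described across all genes. The nuclei were selected on their measured myosin counts, as the barcodes of the EOM nuclei library with at least 15 UMIs of MYH15, at most 3 UMIs of MYH7 and more UMIs of MYH15 than of MYH13. A UMI, or unique molecular identifier, stands for 1 captured RNA molecule. The rule took 1490 of the 16491 barcodes of the library, or 9.04%, and 37973 barcodes were present in the 3 libraries together. No barcode of the other libraries met it. These are called the MYH15-dominant nuclei.

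A muscle fibre is a syncytium with many nuclei, and its contraction speed follows the myosin heavy chains it builds. MYH7 is the slow chain of limb and heart, MYH13 the very fast chain of extraocular and laryngeal muscle, and MYH15 an ancient slow-tonic chain that in mammals is known mainly from extraocular muscle and the intrafusal fibres of muscle spindles. Extraocular muscle moves the eye, and it mixes twitch fibres that have a single nerve ending with tonic fibres that have many, a kind nearly absent from mammalian limb muscle.

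The study compared EOM with the quadriceps femoris muscle (QFM), a limb muscle, in 3 libraries of 1 group each: EOM nuclei, QFM nuclei and whole cells of EOM. The labels used here name the tissue of each library and give no treatment, age or number of animals. For QFM the title gives nuclei and the file names give single cells, so an EOM to QFM ratio may also set nuclei against cells. With 1 library in each group no difference had a replicate check and no test was made, and every interval is a 95% interval for counting error alone.

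The MYH15-dominant nuclei were set beside the 5775 other EOM nuclei with at least 30 UMIs over the 6 named chains MYH3, MYH4, MYH6, MYH7, MYH13 and MYH15, called the other myosin-rich nuclei. Closer sets were the 4655 of these in which MYH13 had the most UMIs (MYH13-led nuclei) and 348 EOM nuclei that met the same rule except for holding at least 4 UMIs of MYH7 (MYH15 and MYH7 nuclei). All come from the same library, so the nuclei are not replicates. Levels are given in CPM, a gene's share of all UMIs in the summed nuclei of a set on the usual depth-scaled unit. The median depth was 4477 UMIs in the MYH15-dominant nuclei, 4604 in the other myosin-rich nuclei, 4667 in MYH13-led nuclei and 4713 in MYH15 and MYH7 nuclei.

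Free RNA was gauged from 1271 endothelial-like EOM nuclei (median 2635 UMIs), which should lack fibre genes. MYH13 stood at 1389.9 CPM there and MYH15 at 377 CPM. A level near the endothelial-like one was read as background, though these nuclei are shallower than the fibre sets and equal CPM need not mean equal free RNA. Scrublet called 16.4% of the MYH15-dominant nuclei doublets, against 20.03% of the other myosin-rich nuclei. When the whole library was clustered, 1064 of the MYH15-dominant nuclei (71.4%) lay in 1 cluster of 1851 nuclei, of which they made up 57.5%. Its leading genes included MYH15, FAM240B, NRXN3, TBC1D32, PPP1R1C, LRRC52, DOCK8 and CADPS, and no marker list named it. Clusters named for type II fibres held 99 of the MYH15-dominant nuclei (6.64%), and those named for type I fibres held 87 (5.84%). Another 237 (15.9%) lay in clusters named for endothelial, fibroblast or other non-fibre cells, and 76.4% of these were called doublets, against 5.03% of the 1253 in fibre or unnamed clusters. Only 4 of their barcodes also occurred in the QFM library.

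DMD, the dystrophin gene of muscle fibres, was looked at as a fibre gene that the rule did not use. Both sets were chosen on myosin counts, so a high share in them was likely in advance. DMD does not bear on MYH15 or MYH7, and a doublet of a fibre nucleus with another cell would hold it too. After every nucleus was thinned to 1000 UMIs, DMD had a UMI in 99.9% of the MYH15-dominant nuclei and 99.9% of the other myosin-rich nuclei, against 70.7% of endothelial-like nuclei. The summed markers of other cells were low and did not exceed those of the other myosin-rich nuclei for endothelial (377 against 533 CPM), fibroblast (616 against 730 CPM), mural (313 against 419 CPM) or macrophage cells (66.2 against 91.1 CPM). The Schwann list was higher, at 2780.2 against 1422 CPM, most of which came from XKR4 (2626 against 1205 CPM), and the mast cell (91.8 against 87.7 CPM) and tenocyte lists (13.1 against 11.1 CPM) were slightly so. Among the markers SLC17A6, LEP and KERA had no UMI in the MYH15-dominant nuclei.

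The chain counts that follow chose the nuclei and are given as a description. A MYH15-dominant nucleus held between 15 and 338 UMIs of MYH15, with a median of 46, and together they held 82358 of the library's 168114 MYH15 UMIs (49.0%). MYH7 had no UMI in 1031 nuclei (69.2%). Its summed level was 89.1 CPM, against 1687 CPM in the MYH15 and MYH7 nuclei and 67.6 CPM in endothelial-like nuclei; the limit of 3 UMIs fixed this level, so it does not test whether MYH7 is absent. MYH6, the cardiac alpha chain, had no UMI in 96.9% of nuclei. The same held for 94.4% of the other myosin-rich nuclei and 82.2% of the MYH15 and MYH7 nuclei.

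MYH13 was not absent: the median nucleus held 17 UMIs, with a range of 0 to 170, and the summed level was 4508 CPM, against 11744 CPM in the other myosin-rich nuclei and 1389.9 CPM in endothelial-like nuclei. MYH15 stood at 10922.5 CPM in the MYH15-dominant nuclei, 7787 CPM in MYH15 and MYH7 nuclei, 1771 CPM in MYH13-led nuclei and 0.935 CPM in the 5639 QFM nuclei with at least 30 UMIs of the 6 chains. The MYH13 share of MYH13 plus MYH15 UMIs had a median of 28.7% and reached 49.5%.

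The row named MYH3 held the second largest summed level of the chains, with a median of 21 UMIs and a range of 1 to 156. MYH3 is the embryonic chain, yet this row held 79.8% of the 6-chain UMIs of QFM nuclei, whose age the labels do not give. MYH1, MYH2 and MYH8 have no row of their own name in the table, so what the MYH3 row counts is uncertain. Of the UMIs of the 6 chains in the MYH15-dominant nuclei, MYH15 made up 52.5%, MYH3 23.8%, MYH13 21.7%, MYH4 1.49%, MYH7 0.429% and MYH6 0.0542%. In the other myosin-rich nuclei MYH13 made up 54.9%, MYH3 29.3% and MYH15 9.77%.

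**Figure D1:**
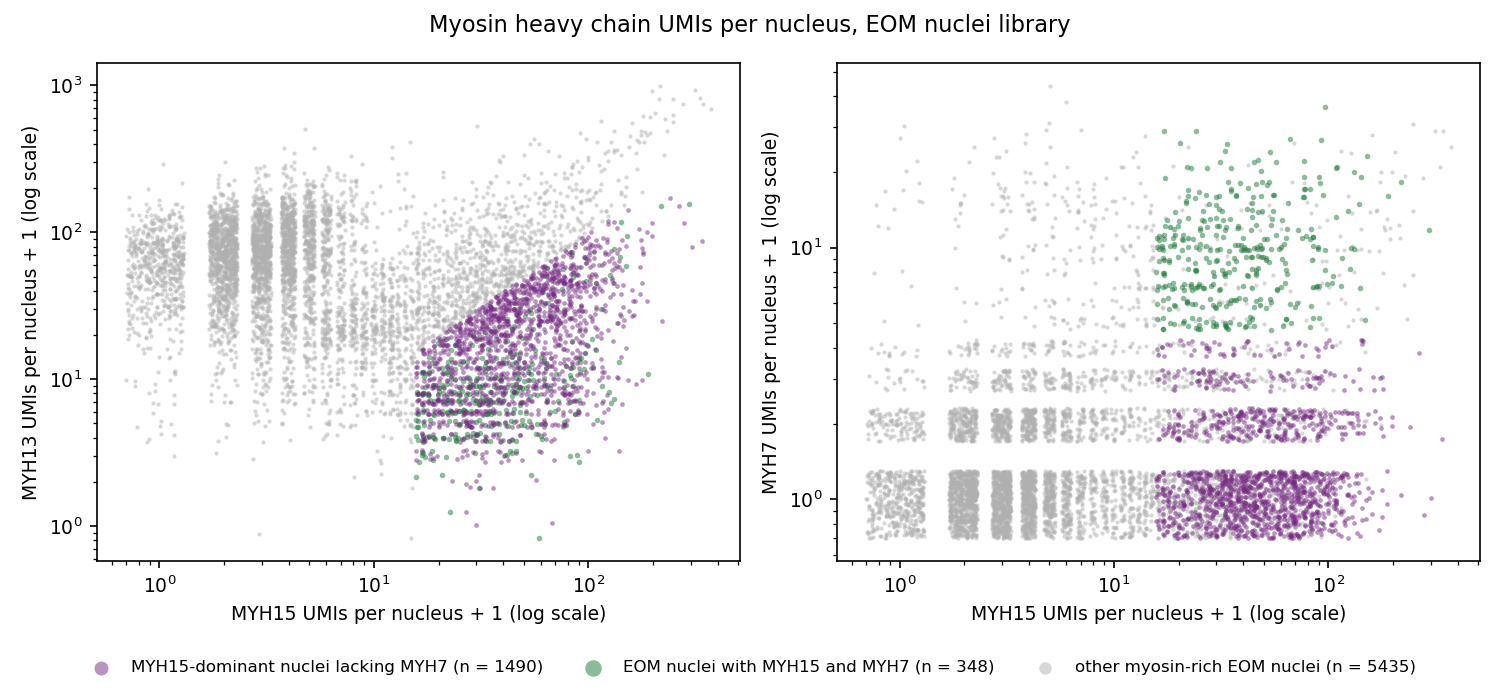
UMIs per EOM nucleus, plus 1, on log axes with a small random spread: MYH15 against MYH13 (left) and against MYH7 (right). Purple points are the 1490 MYH15-dominant nuclei, green the 348 MYH15 and MYH7 nuclei and grey the remaining myosin-rich nuclei; the purple points run up to the line of equal MYH13 and MYH15 without a gap.

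The rule cut through continuous ranges. The 178 nuclei just inside its MYH13 limit (MYH13 above 80% of MYH15) held 5532 CPM of NRXN3, 1247 CPM of TBC1D32 and 237 CPM of FAM240B, and the 211 just outside it (MYH15 above 80% of MYH13) held 5523, 1181 and 267 CPM. The 126 nuclei with 15 to 19 UMIs of MYH15 held 2541 CPM of NRXN3 and 801 CPM of TBC1D32, and 100 otherwise matching nuclei with 10 to 14 UMIs held 2757 and 652 CPM. At the MYH7 limit the sets stood further apart: NRXN3 was at 3188 CPM in the 56 nuclei with 3 UMIs of MYH7 and at 903 CPM in 116 nuclei with 4 to 6.

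SYBU, CADPS, PPP1R1C, HHLA2 and TBC1D32 had the highest ratios to the other myosin-rich nuclei among genes of at least 100 CPM. A gene was measured with at least 20 UMIs over both sets and called at a 2-fold ratio. Of 18276 measured genes, 342 (1.87%) were at least 2-fold higher than in the other myosin-rich nuclei and 1120 (6.13%) at least 2-fold lower, which left 92.0% within 2-fold. The interval of the log2 ratio excluded 0 for 263 of the higher and 671 of the lower genes, and lay wholly beyond 2-fold for 89 and 191. The median log2 ratio over all measured genes was -0.07. The 15 highest genes with at least 100 CPM in either set, leaving out the chains, had log2 ratios of 1.31 to 2.03.

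NRXN3, a neurexin that bridges nerve terminals and their targets, had 4845 CPM in the MYH15-dominant nuclei, against 1499 CPM in the other myosin-rich nuclei (log2 ratio 1.69, interval 1.67 to 1.71). After thinning, 84.0% of the MYH15-dominant nuclei had an NRXN3 UMI, against 43.9% of the other myosin-rich nuclei and 19.4% of endothelial-like nuclei. CADPS, which primes dense-core vesicles for release, had 443 against 117 CPM (log2 ratio 1.93, interval 1.86 to 1.99). SYBU, an adaptor that loads vesicles and mitochondria onto kinesin, had 122 against 29.9 CPM (log2 ratio 2.03), and the lower level was below the 37.4 CPM of endothelial-like nuclei.

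Ion channel and calcium genes were among the 15. KCND2, the Kv4.2 channel of transient potassium currents, had 1758 CPM in the MYH15-dominant nuclei against 709 CPM (log2 ratio 1.31). LRRC52, an auxiliary subunit of large potassium channels, had 166 against 56.2 CPM (log2 ratio 1.57). CASQ2, the calsequestrin of heart and slow fibres that stores calcium in the reticulum, had 518 against 202 CPM (log2 ratio 1.36), and 0.96 in the 487 nuclei whose MYH15 count was at least 4 times that of MYH13. Outside the 15 because of its low level, KCNC1, the fast-gating Kv3.1 channel, had 32.1 against 7.25 CPM (log2 ratio 2.15, interval 1.89 to 2.41).

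The other 9 had varied known roles. TBC1D32, known for ciliary and hedgehog signalling, had 1199 CPM against 367 CPM (log2 ratio 1.71). LMX1A, a LIM homeodomain transcription factor, had 890.0 against 329 CPM (log2 ratio 1.44). DOCK8, an activator of CDC42 known from immune cells, had 688 against 229 CPM, and PPP1R1C, an inhibitor of protein phosphatase 1, had 219 against 64.4 CPM. FRZB, a secreted Wnt antagonist, had 176 against 64.9 CPM. The remaining 4 were HHLA2, an immune ligand of the B7 family (182 against 55.2 CPM), FAM240B (169 against 52.2 CPM), the proteoglycan SPOCK1 (179 against 59.1 CPM) and the matrix receptor ANTXR2 (331 against 128 CPM). All 15 were at least 2-fold above their level in endothelial-like nuclei.

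Of the lowest 15 genes, 11 stood in the MYH15-dominant nuclei within 2-fold of the endothelial-like level or below it. SLC24A2, a sodium-calcium-potassium exchanger, had 18.2 CPM in the MYH15-dominant nuclei against 193 CPM in the other myosin-rich nuclei (log2 ratio -3.41, interval -3.66 to -3.16), with 16.6 CPM in endothelial-like nuclei. TNC, the matrix protein tenascin-C, had 9.55 against 101 CPM (log2 ratio -3.40). SCN2B, a sodium channel beta subunit, had 45.8 against 305 CPM (log2 ratio -2.74). MYBPC2, the fast myosin-binding protein C, had 32.9 against 198 CPM (log2 ratio -2.59).

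The potassium channels KCNN3 (log2 ratio -2.54) and KCNQ5 (-2.35), the plasma membrane calcium pump ATP2B2 (-2.58), the cadherin CDH20 (-2.57), the interferon lambda receptor IFNLR1 (-2.84) and the M-band protein MYOM3 (-2.12) were lower too, as were CCDC60 (-2.53), SEC14L5 (-2.15) and CCDC85A (-2.13). AGBL1, which trims glutamate chains from tubulin, stayed above background at 489 CPM in the MYH15-dominant nuclei, against 2123 CPM in the other myosin-rich nuclei and 199 CPM in endothelial-like nuclei. CCDC85A was highest in the endothelial-like nuclei, at 729.9 CPM.

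**Figure D2:**
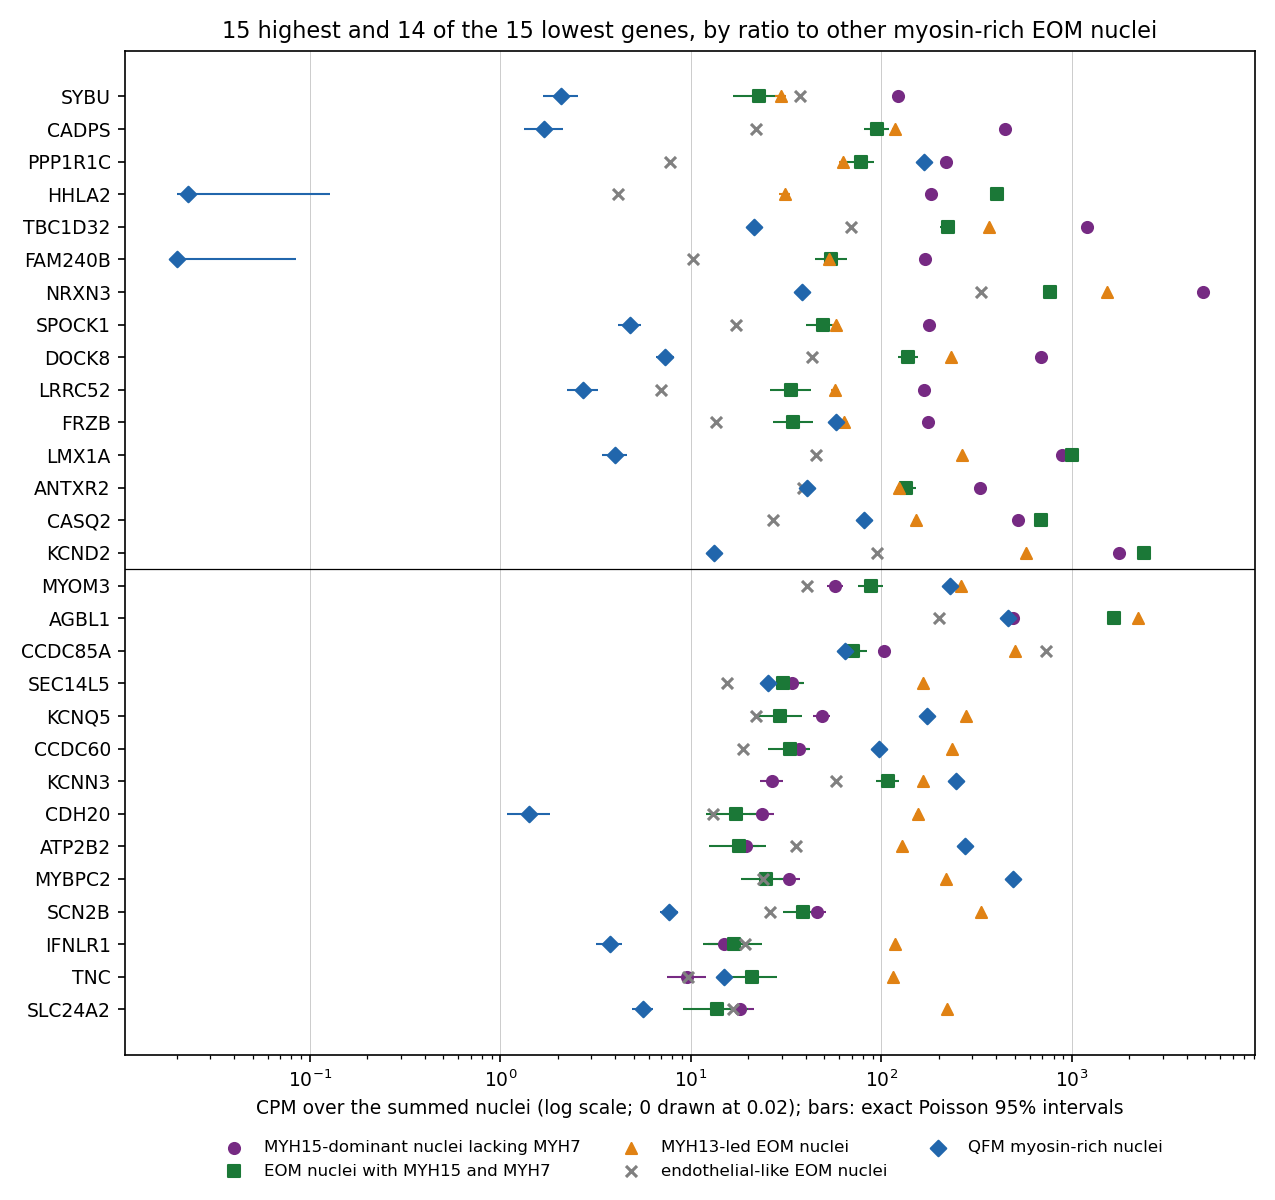
Summed level in CPM (log axis) of the 15 highest and 14 of the 15 lowest genes by their ratio to the other myosin-rich nuclei, for 5 sets of nuclei, with exact Poisson 95% intervals. In the upper 15 rows the purple circles (MYH15-dominant nuclei) stand right of the orange triangles (MYH13-led nuclei), and in the lower 14 rows left of them.

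Against the MYH13-led nuclei alone, 405 of 17796 measured genes (2.28%) were at least 2-fold higher and 1045 (5.87%) at least 2-fold lower. This comparison shares the MYH15-dominant nuclei and most of its other side with the one above. The 15 highest genes were at least 2-fold higher here too, and the 15 lowest at least 2-fold lower. HHLA2 headed the ranking, at 182 CPM in the MYH15-dominant nuclei against 31.1 CPM in MYH13-led nuclei (log2 ratio 2.55). PI15, a secreted peptidase inhibitor, had 197 against 54.9 CPM (log2 ratio 1.85), CASQ2 reached a log2 ratio of 1.77 and LMX1A 1.75.

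QFM nuclei with the same 30 UMIs of the chains served as a view of limb muscle. Of the 15 highest genes, 14 were at least 2-fold higher in the MYH15-dominant nuclei than in QFM and 1, PPP1R1C, was within 2-fold (219 against 168 CPM). FAM240B had no UMI in the QFM set, and NRXN3 had 38.4 CPM there. Of the 15 lowest genes, 6 were at least 2-fold lower than in QFM, among them MYBPC2 (32.9 against 491 CPM), 5 were at least 2-fold higher and 4 were within 2-fold.

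Slow and fast sarcomere genes differed gene by gene. List counts against the other myosin-rich nuclei, here and below, stand beside 1.87% of all measured genes higher and 6.13% lower. On a list of slow sarcomere genes 9 were measured against the other myosin-rich nuclei, of which 2 were higher by 2-fold or more, 2 were lower and 5 were within, with a median log2 ratio of 0.17 beside -0.07 for all genes. The higher were MYOZ2, a Z-disc protein of slow fibres (467 against 204 CPM, log2 ratio 1.20), and CSRP3, the muscle LIM protein (254 against 118 CPM, log2 ratio 1.11). MYBPC1, the slow myosin-binding protein C, had 7827 against 4090.2 CPM, just short of 2-fold (log2 ratio 0.94, interval 0.92 to 0.95). The lower were TNNI1, slow troponin I (4.38 against 12.2 CPM, log2 ratio -1.48), and MYL3, the slow light chain (3.45 against 7.39 CPM, log2 ratio -1.10). ATP2A2, the slow calcium pump, had 196 against 132 CPM (log2 ratio 0.57). With MYH15 at least 4 times MYH13, MYOZ2 was at 0.77 and CSRP3 at 0.74, both under 2-fold.

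On the fast sarcomere list, 4 of 12 measured genes were at least 2-fold lower, none higher and 8 within, with a median of -0.63. The 4 were MYBPC2, ACTN3 (6.63 against 27.5 CPM, log2 ratio -2.05), the light chain kinase MYLK2 (2.65 against 10.9 CPM, log2 ratio -2.04) and PVALB, the calcium buffer parvalbumin (86.1 against 173 CPM, log2 ratio -1.01). The fast troponins were nearer to level: TNNT3 had a log2 ratio of -0.56, TNNI2 -0.28 and TNNC2 -0.24. The fast light chains lay above zero, MYL1 at 0.30 (2949.7 against 2391 CPM) and MYL11 at 0.26, and ATP2A1, the fast calcium pump, was at -0.71 (397 against 651 CPM). PVALB was at -0.77 with MYH15 at least 4 times MYH13. Markers summed over the type I list came to 8687 CPM, against 4836 CPM in the other myosin-rich nuclei, and MYBPC1 alone made up 7827 and 4090.2 CPM of these sums. Of its 8 measured genes, the selected chain MYH7 included, 1 was at least 2-fold higher, 3 were lower and 4 within, with a median log2 ratio of -0.25. The type II list summed to 2775 against 4336 CPM.

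TNNT2, the cardiac troponin T that is also made in developing muscle, had 559.9 CPM in the MYH15-dominant nuclei, against 289 CPM in the other myosin-rich nuclei, 179 CPM in MYH13-led nuclei, 63.5 CPM in endothelial-like nuclei and 1.41 CPM in QFM. ACTC1, cardiac actin, differed little (674 against 625 CPM, log2 ratio 0.11). TNNT2 was uneven within the MYH15-dominant nuclei. It had 504 CPM in those with no MYH7 UMI and 1295 CPM in the 56 with 3 UMIs of MYH7. On the list of cardiac and developmental isoforms 1 of 8 measured genes was at least 2-fold higher, MYBPC3 at 4.51 against 1.57 CPM, 1 lower and 6 within. Against the MYH15 and MYH7 nuclei 1 of 8 was higher, 4 were lower and 3 within, with a median of -0.86. The list summed to 1376 CPM, against 2682 CPM in the MYH15 and MYH7 nuclei. Among 18 measured M-band, Z-disc and titin-related genes 2 were higher, SYNPO2 (781 against 362 CPM, log2 ratio 1.11, and 0.96 with MYH15 at least 4 times MYH13) and the low ANKRD1 (log2 ratio 1.02), 1 was lower, MYOM3, and 15 were within; MYOM1 had 1539.8 against 964 CPM (log2 ratio 0.68).

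Genes of the neuromuscular junction were lower or within 2-fold. Of 19 measured, 7 were at least 2-fold lower than in the other myosin-rich nuclei, none was higher and 12 were within, with a median of -0.49. Over all measured genes 6.13% were lower and 1.87% higher. MUSK, the receptor kinase that gathers acetylcholine receptors, had 59.9 against 191 CPM (log2 ratio -1.67), and COL25A1, a transmembrane collagen required for motor innervation in mice, had 133 against 376 CPM (log2 ratio -1.498). The receptor subunits CHRNA1 (log2 ratio -1.15), CHRND (-1.28) and CHRNE (-2.00), the collagen COL13A1 (-1.40) and LRP4, the agrin receptor (-1.07), were the others. Against the MYH13-led nuclei only 4 of the 19 were at least 2-fold lower, beside 5.87% of all measured genes, with COL25A1 at -0.64. With MYH15 at least 4 times MYH13, COL25A1 was at -0.91 and LRP4 at -0.78 against the other myosin-rich nuclei, and after thinning CHRNA1 was at -0.94, all under 2-fold. No MYH15-dominant nucleus lay in the library's cluster of junctional nuclei.

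Other nerve-related genes differed one by one, beside 1.87% of all measured genes at least 2-fold higher and 6.13% lower. Of 16 measured glutamate receptors 1 was higher, the AMPA receptor subunit GRIA3 (1342 against 658 CPM, log2 ratio 1.03, and 0.96 in fibre or unnamed clusters alone), 3 were lower and 12 within. Of 39 measured guidance and adhesion genes 2 were higher, NRXN3 and the ephrin receptor EPHA7 (127 against 63.5 CPM), 5 were lower, among them LRRC4C (27.3 against 108 CPM, log2 ratio -1.98) and CNTN1 (17.9 against 66.0 CPM), and 32 were within, with a median of -0.43. Of 22 measured excitability genes 1 was higher (KCNC1), 3 lower and 18 within. Of 25 measured calcium handling genes 1 was higher (CASQ2), 3 lower (ATP2B2, CAMK2A and CACNG1) and 21 within.

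None of 32 measured genes of mitochondria and respiration passed 2-fold, and their median was 0.01; over all measured genes 92.0% were within 2-fold, so these counts are near the background. ESRRG, a nuclear receptor that drives oxidative genes, was the furthest up among them at 1626 against 990.2 CPM (log2 ratio 0.72, interval 0.69 to 0.75), while its partner PPARGC1A was level (931 against 930.2 CPM). Of 24 genes of fatty acid use 1, the lipase LPL, was higher (50.1 against 23.7 CPM, at a log2 ratio of 0.59 with MYH15 at least 4 times MYH13), and 23 were within. Of 18 glycolysis and glycogen genes none was higher and 2 were lower, the glycerol-phosphate dehydrogenases GPD2 (42.7 against 149 CPM) and GPD1 (4.91 against 19.4 CPM). GPD2 had 151 CPM in endothelial-like nuclei.

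The counts for regulators of fibre type and of cranial identity were also near the 92.0% of all genes within 2-fold. Of 34 measured fibre type regulators none was higher, 2 were lower (PROX1 at 15.1 against 33.6 CPM and MAF at 19.5 against 41.7 CPM) and 32 within; TBX15 had 1285 against 1671 CPM and MEF2C 2309 against 1747 CPM. Neither lower call held under every setting: after thinning PROX1 was at a log2 ratio of -0.48 and MAF at -0.75, and with MYH15 at least 4 times MYH13 at -0.41 and -0.63. Of 17 cranial patterning genes LMX1A was the 1 above 2-fold and 16 were within. Of the 17 limb and trunk patterning genes only MEOX1 and MEOX2 were measured, and MEOX2 was highest in endothelial-like nuclei. Of 8 measured spindle genes 2 were lower, TNC and GDNF, and 6 within. All 12 measured genes of the myotendinous junction and all 18 of the dystrophin complex were within 2-fold, DMD at 15244 against 11308 CPM (log2 ratio 0.43). Of 22 atrophy and growth genes 2 were lower (MSTN and MYOCD) and 20 within, and of 9 immediate early genes 1 was lower (FOS, 0.398 against 1.37 CPM) and 8 within.

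**Figure D3:**
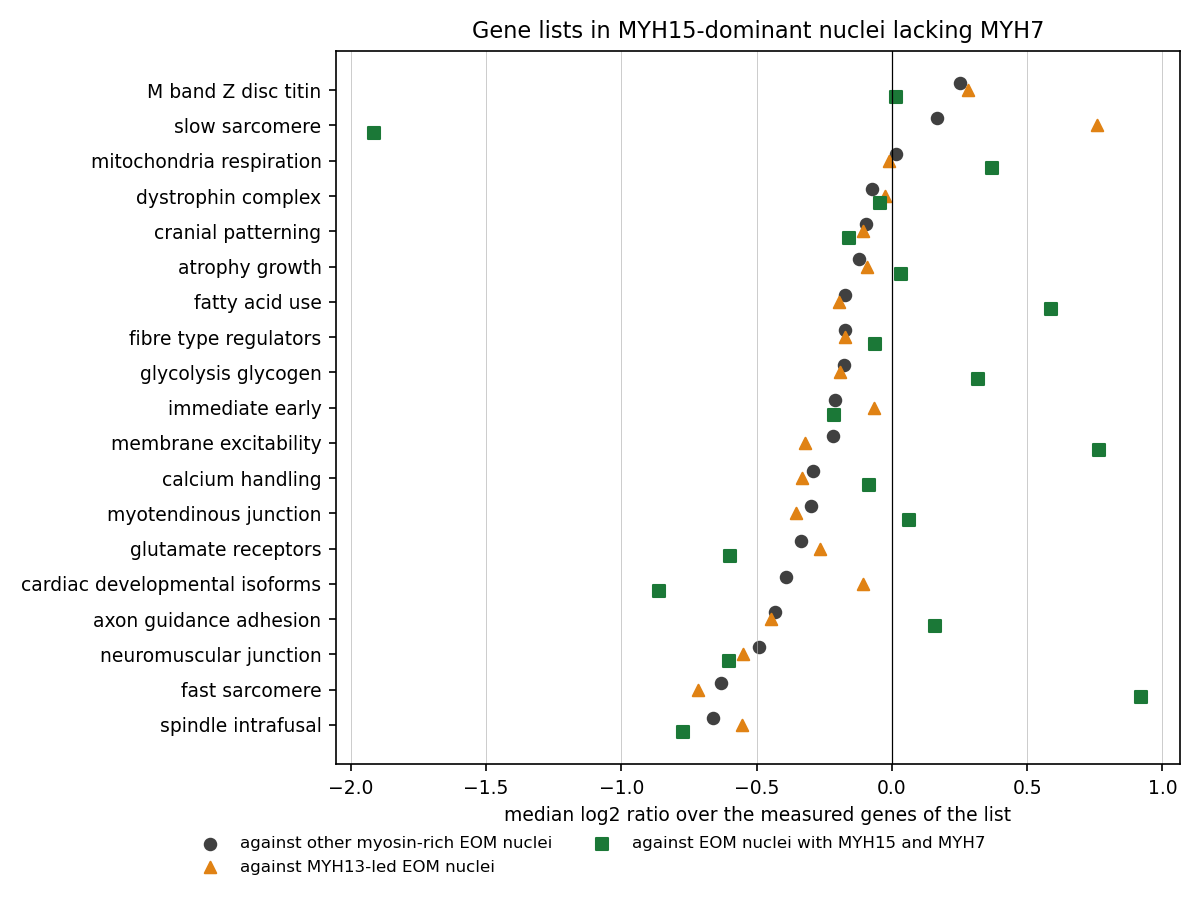
Median log2 ratio over the measured genes of 19 lists, for the MYH15-dominant nuclei against the other myosin-rich nuclei (grey circles), MYH13-led nuclei (orange triangles) and MYH15 and MYH7 nuclei (green squares). The slow sarcomere list stands at 0.17, 0.76 and -1.91 and the fast sarcomere list at -0.63, -0.72 and 0.92, in that order.

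The MYH15 and MYH7 nuclei, which share the MYH15 rule, were compared with the MYH15-dominant nuclei in the same way. Of 13802 measured genes 834 (6.04%) were at least 2-fold higher in the MYH15-dominant nuclei and 816 (5.91%) at least 2-fold lower, with intervals wholly beyond 2-fold for 126 and 335. The higher side was led by NRXN3 (4845 against 765 CPM, log2 ratio 2.66, interval 2.59 to 2.74), XKR4 (2626 against 461 CPM, 2.51), TBC1D32 (2.43), SYBU (2.42), FRZB (2.35), DOCK8 (2.32), LRRC52 (2.31) and CADPS (2.23). XKR4 belongs to a family of membrane lipid scramblases.

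Among genes of at least 100 CPM in either set, ADAM7, RIT2 and NDP had the lowest ratios. ADAM7, of the disintegrin and metalloprotease family, had 6.76 CPM in the MYH15-dominant nuclei against 158 CPM (log2 ratio -4.55, interval -5.00 to -4.11). RIT2, a small Ras-like GTPase, had 105 against 1578 CPM (log2 ratio -3.91), and COL25A1 133 against 1717 CPM (log2 ratio -3.69). NDP, the Wnt ligand norrin, was at a log2 ratio of -3.87, the formin DIAPH3 at -3.79, the Wnt enhancer RSPO3 at -3.76, the natriuretic peptide protease CORIN at -3.69 and FEZ2 at -3.67. FEZ2 at 76.3 CPM stood at its endothelial-like level of 77.9 CPM in the MYH15-dominant nuclei.

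Some genes were as high or higher in the MYH15 and MYH7 nuclei and so did not set the MYH15-dominant nuclei apart from them. LMX1A had 890.0 against 995 CPM (log2 ratio -0.16), CASQ2 518 against 687 CPM (-0.41), KCND2 1758 against 2397 CPM (-0.45) and GRIA3 1342 against 1712 CPM (-0.35). HHLA2 was 2-fold lower, at 182 against 402 CPM (log2 ratio -1.14), and PI15 lower still at -1.52. Of the 15 genes highest against all other myosin-rich nuclei, 11 were at least 2-fold higher against the MYH15 and MYH7 nuclei as well, 1 was lower and 3 were within. Of the 15 lowest, only 3 were at least 2-fold lower against the MYH15 and MYH7 nuclei, and 12 were within. Most of the 15 lowest genes thus did not set the MYH15-dominant nuclei apart from the MYH15 and MYH7 nuclei.

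The slow and fast sarcomere lists had medians of opposite sign against the MYH15 and MYH7 nuclei. Over all measured genes 6.04% were higher and 5.91% lower in this comparison. On the slow sarcomere list 5 of 9 measured genes were lower by 2-fold or more in the MYH15-dominant nuclei and 4 were within, with a median of -1.91; TNNI1 was at -3.91, MYL3 at -3.21, MYL6B at -3.12, TNNC1 at -2.70 and MYL2 at -1.91. Of 12 fast genes 6 were higher, 1 lower and 5 within, with a median of 0.92; TNNT3 was at 1.59, MYL11 at 1.46, MYL1 at 1.23 and ATP2A1 at 1.07. Of 21 excitability genes 8 were higher, 3 lower and 10 within, among them CLCN1, the chloride channel of the muscle membrane (log2 ratio 1.92), KCNMA1, the large calcium-activated potassium channel (1.504), and KCNJ2 (1.98). Of 18 junction genes none was higher, 8 were lower and 10 within, with MUSK at -3.23 (59.9 against 561 CPM) and CHRNA1 at -2.78. Oxygen-storing myoglobin, MB, was at -2.28 (54.9 against 267 CPM), and PROX1, a factor known for slow fibre identity, at -3.61.

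Within the MYH15-dominant nuclei the MYH13 share of MYH13 plus MYH15 UMIs was used to cut them into 4 groups of 372 or 373 nuclei. In the group of lowest share, with shares up to 16.7%, MYH13 stood at 1412 CPM and MYH15 at 12440.0 CPM. Endothelial-like nuclei held 1389.9 CPM of MYH13, but at a median of 2635 UMIs against 4563 in this group. Whether the MYH13 of this group is background was not tested. In the 4 groups of rising share FAM240B had 42.8, 115, 219.6 and 296 CPM, PPP1R1C 94.3, 187, 265 and 324 CPM, NRXN3 3549, 4496, 5349 and 5942 CPM, and DOCK8 480.3, 612, 776 and 878 CPM. FAM240B in the lowest group was under its 53.3 CPM in MYH13-led nuclei. In the nuclei with 4 times as much MYH15 as MYH13, the log2 ratio against the other myosin-rich nuclei was -0.17 for FAM240B and 0.74 for PPP1R1C. ESRRG likewise had 1092, 1555, 1859 and 1977 CPM.

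Other genes ran the opposite way or kept their level. KCNC1 had 50.4, 38.3, 20.7 and 19.95 CPM from the lowest to the highest group, PRKG1, the cGMP-dependent kinase, 876, 610.0, 496 and 400.1 CPM, and COL25A1 222, 137, 89.2 and 87.4 CPM. Among the subclusters described below, subcluster 8 (16 nuclei, median MYH13 share 13.6%) was high in PRKG1. Subcluster 6 (82 nuclei, median share 17.8%) was high in COL25A1 and RIT2. The part of these subclusters in the declines was not tested. TBC1D32 (1073, 1162, 1321 and 1228 CPM), LMX1A (896, 844, 924 and 894 CPM) and SPOCK1 (179, 170.3, 185 and 179.6 CPM) kept near 1 level. Of the 15 highest genes 2, FAM240B and PPP1R1C, were at least 2-fold higher in the highest than in the lowest group, and 13 were within 2-fold. Median depth was 4415 to 4583 UMIs and the doublet share 13.7% to 19.1% across the groups.

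**Figure D4:**
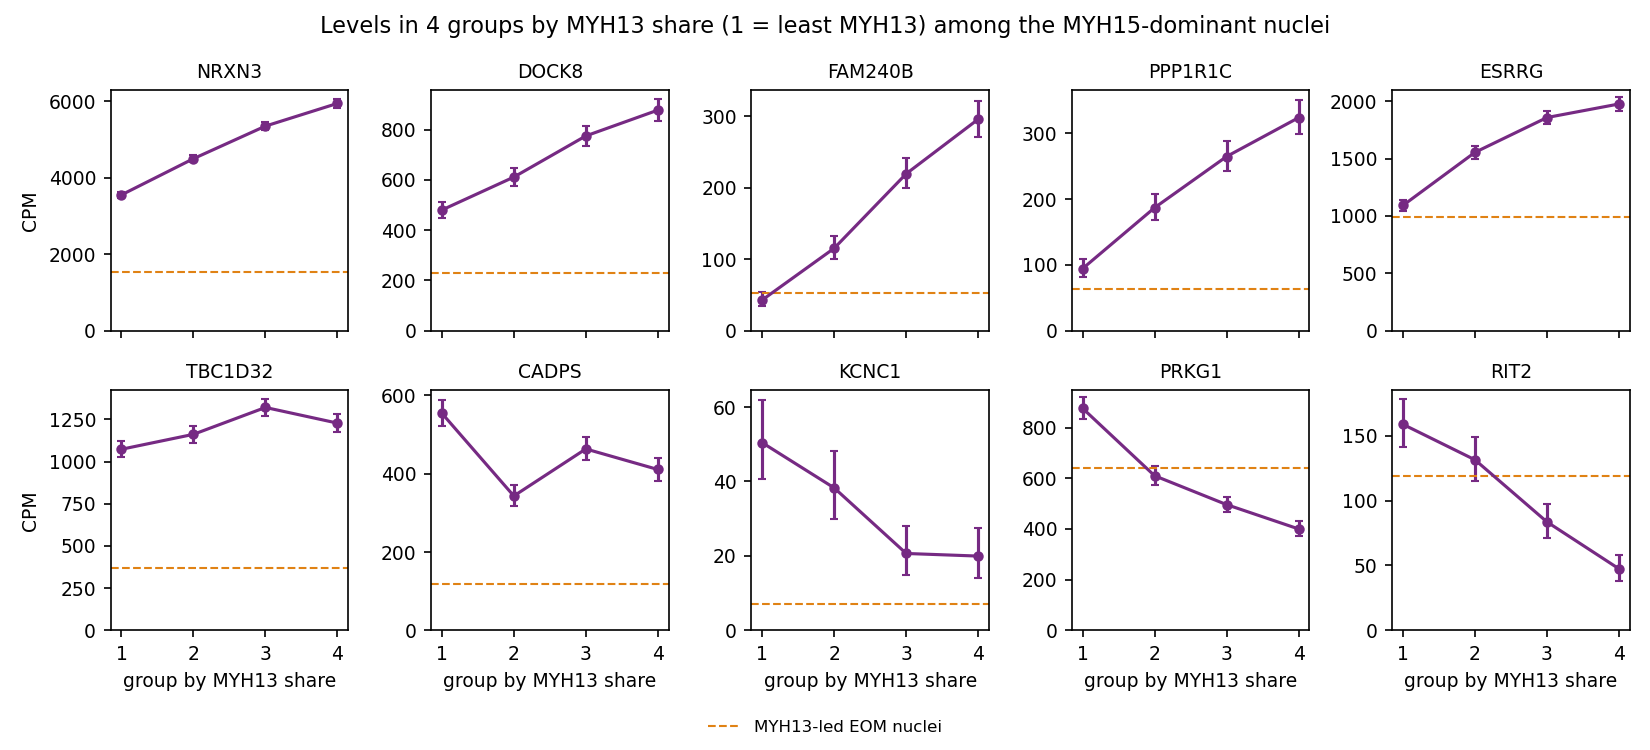
Level in CPM (each panel with its own axis from 0) of 10 genes in 4 groups of the MYH15-dominant nuclei by MYH13 share, group 1 holding the least MYH13, with exact Poisson 95% intervals. The dashed line is the level in MYH13-led nuclei; FAM240B and PPP1R1C climb with the share, KCNC1, PRKG1 and RIT2 decline, and TBC1D32 stays between 1073 and 1321 CPM.

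The few MYH7 UMIs that the rule allowed were not evenly spread. RIT2 had 37.2 CPM in the 1031 nuclei with no MYH7 UMI, 95.4 CPM in the 302 with 1, 371 CPM in the 101 with 2 and 765 CPM in the 56 with 3. COL25A1 had 63.7, 155, 340.3 and 753 CPM in the same order, MUSK 36.0, 46.8, 161 and 336 CPM, and TNNT2 504, 544, 699 and 1295 CPM. NRXN3 had 5186, 4532, 3693 and 3188 CPM, and TBC1D32 1257, 1269, 778 and 614 CPM. The share of called doublets also differed, at 14.1%, 18.9%, 23.8% and 32.1%, and its part in these levels was not tested. With no MYH7 UMI allowed, the log2 ratio against the other myosin-rich nuclei was -2.72 for RIT2, -2.56 for COL25A1 and -2.41 for MUSK, against -1.22, -1.498 and -1.67 under the full rule; with MYH15 at least 4 times MYH13 RIT2 was at -0.81 and COL25A1 at -0.91.

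When the MYH15-dominant nuclei were clustered alone, without the 6 chains, 12 subclusters resulted, which are described by their leading genes. Subclusters 0 to 5, with 147 to 305 nuclei each and 1165 (78.2%) in all, came mostly from the main cluster of the library, with doublet shares of 1.23% to 10.5%. Subcluster 2 had only 50.7% of its nuclei there, against 89.8% to 97.5% for the rest of these. Its leading genes KCNIP4, CCDC192 and AIM2 were also among the leaders of a library cluster named for type II fibres. FAM240B led subcluster 0, at 589 CPM, where CADPS had 71.1 CPM. SPOCK1 was among the leaders of subcluster 1 (416 CPM), and KCNIP4, a subunit of Kv4 channels, led subcluster 2, which held little FAM240B (5.55 CPM) or PPP1R1C (12.5 CPM). PPP1R1C led subcluster 3 (594 CPM), where XKR4 reached 4239 CPM, and CADPS was a leader of subcluster 4 (891 CPM), beside SYBU at 220.0 CPM. In subcluster 5 CDH20 and the oestrogen receptor ESR1 led, and KCND2 was low at 430.0 CPM. MYH15 varied little between them (10266 to 13184 CPM).

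Subcluster 6, of 82 nuclei with 19.5% called doublets and a median depth of 3596.5 UMIs, stood apart. It lay mostly in a type I-named cluster of the library (93.9%), and 9.76% of its nuclei had no MYH7 UMI, against 70.6% to 78.4% in subclusters 0 to 5. RIT2 was at 1372 CPM there, COL25A1 at 1627 CPM and FEZ2 at 1052 CPM, with NRXN3 at 986 CPM and SYBU at 3.14 CPM. These levels were near those of the MYH15 and MYH7 nuclei (1578, 1717, 971, 765 and 22.8 CPM) for all of these genes but SYBU.

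Subclusters 7, 9 and 11 were led by genes of other cells, with doublet shares of 84.1%, 75.4% and 100%. Fibroblast markers summed to 2114 CPM in subcluster 7 (107 nuclei), endothelial markers to 3135 CPM in subcluster 9 (57 nuclei) and macrophage markers to 2529.8 CPM in subcluster 11 (10 nuclei). Subcluster 10 (53 nuclei, 50.9% called doublets) was led by COL24A1, CTNNA2, TECRL and CHRNA1, with fibroblast markers at 953 CPM and endothelial markers at 651 CPM. Subcluster 8, of 16 nuclei with no called doublet, was led by THBS4, a matrix protein of tendon attachments, SCHIP1 and RYR2, and held 9219.9 CPM of PRKG1. Its myotendinous markers summed to 907 CPM and its tenocyte markers to 542 CPM, both through THBS4 in part, since that gene is on both lists.

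**Figure D5:**
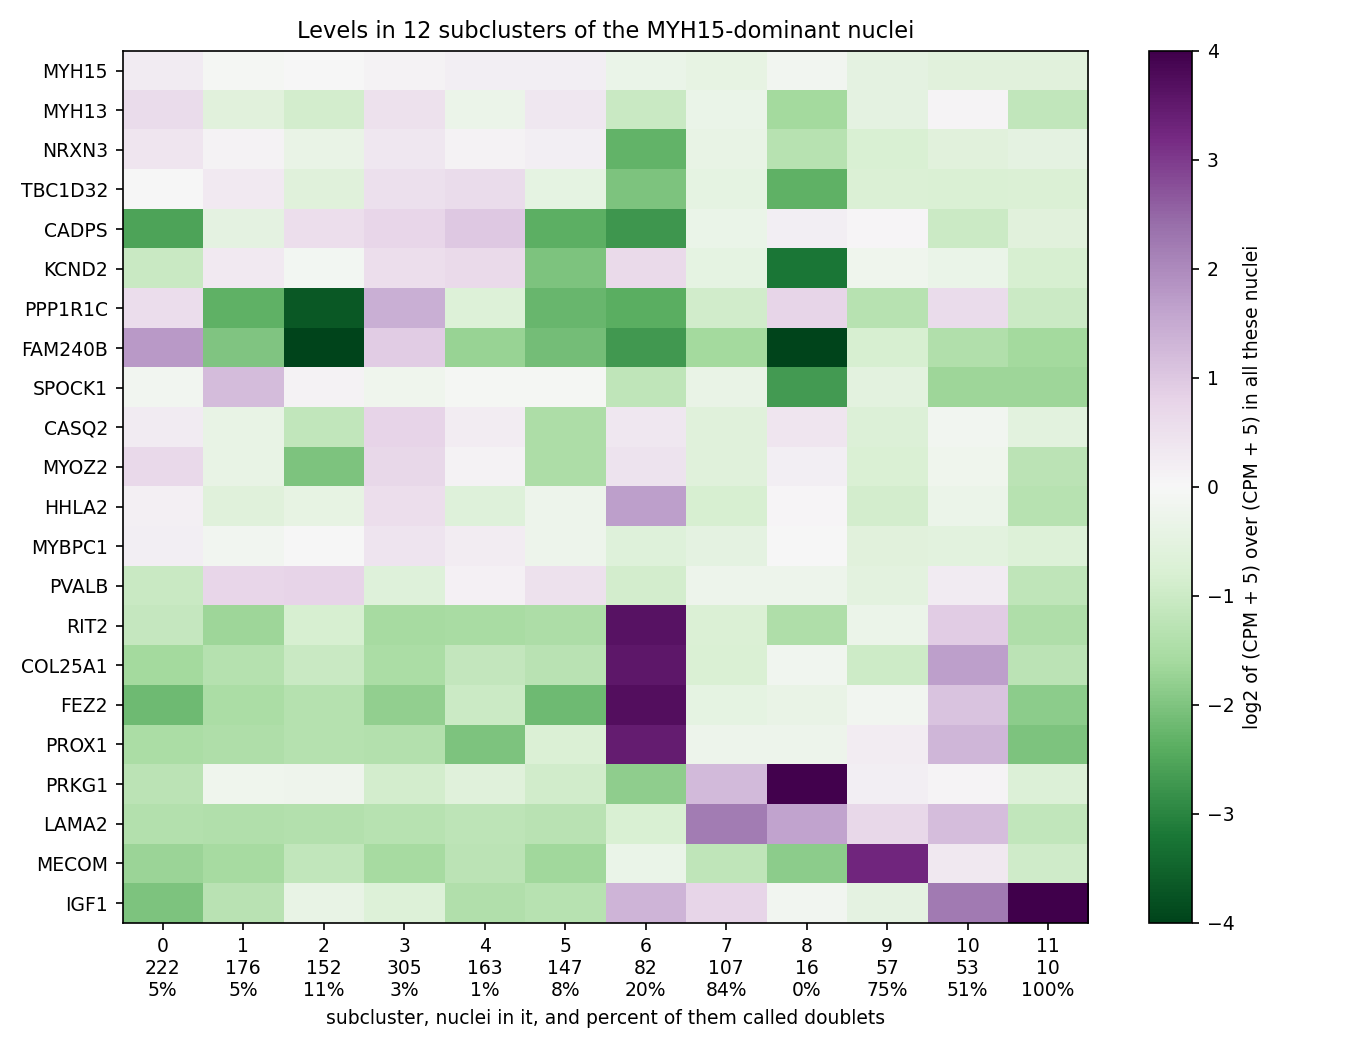
Level of 22 genes in 12 subclusters of the MYH15-dominant nuclei, as the log2 ratio of CPM plus 5 to that over all of them (colour scale); the axis gives the number of nuclei and the percent called doublets. Columns 0 to 5 differ in FAM240B, PPP1R1C, CADPS and KCND2, and column 6 alone is dark purple for RIT2, COL25A1, FEZ2 and PROX1.

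The row named MYH3 had the most UMIs of the 6 chains in 100 of the MYH15-dominant nuclei, MYH15 in 1375, and 15 were tied. Of 13011 genes measured between the first 2 sets 508 (3.9%) were at least 2-fold higher in the MYH3-led nuclei and 883 (6.79%) at least 2-fold lower, but the interval lay wholly beyond 2-fold for only 29 and 3. RYR2, the cardiac calcium release channel, had 203 against 16.2 CPM (log2 ratio 3.65), the adaptor SCHIP1 144 against 28.3 CPM (2.35), IGF1, insulin-like growth factor 1, 115 against 33.9 CPM (1.76), PRKG1 1562 against 509.6 CPM (1.62), TRPM3 151 against 52.1 CPM (1.54) and SORBS2 122 against 42.4 CPM (1.53). FAM240B was lower at 82.1 against 176 CPM (log2 ratio -1.10), as was ITSN2 (58.4 against 122 CPM, -1.06).

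Subcluster 8 held 5 of the MYH3-led nuclei, and the ratios changed without it. RYR2 was then at a log2 ratio of 2.81, SCHIP1 at 0.95, PRKG1 at 0.51 and SORBS2 at 0.21, whereas IGF1 was at 1.82, TRPM3 at 1.20 and FAM240B at -1.03. IGF1 was highest in the doublet-rich subclusters 11 (925 CPM) and 10 (205 CPM), which held 1 and 7 of the MYH3-led nuclei, and their part in its ratio was not tested. NRXN3 (log2 ratio -0.28), CADPS (-0.62) and TBC1D32 (-0.20), picked from the 15 highest genes after their values were seen, differed by less than 2-fold between the sets. Of 37 measured guidance and adhesion genes 4 were higher in the MYH3-led nuclei, 6 lower and 27 within, beside 3.9% higher and 6.79% lower over all genes.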

How the data were processed

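Nuclei and cells of macaque muscle were profiled in 3 libraries, and the authors deposited UMI counts for each gene and barcode, not normalized. Cell Ranger 7.2.0 made both nuclei tables, per the file headers, and the submitters' processing notes also name Seurat 5.2.1. For the genome build and the treatment of intronic reads, no statement was found: not given in the sources used here. Of 38550 features in the nuclei files 22005 have a symbol; features without one were not named. Deposited barcodes held at least 500 UMIs. The EOM nuclei library had 61618999 UMIs, the QFM nuclei library 72590186 and the EOM cell library 12248405, with medians of 2867, 4856 and 1141 per barcode.

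No barcode was removed before the rule was applied. Scrublet (expected rate 6%) and Leiden clustering (2000 variable genes, 30 components, 15 neighbours, resolution 1) in scanpy 1.11.5 described the library, giving 22 clusters, which were named from 15 marker lists. Clusters named endothelial with under 5% called doublets, less their doublets, gave the free RNA level. Counts were summed over each set of nuclei, scaled to CPM and compared as log2 ratios with conditional exact binomial intervals; sums have exact Poisson intervals. A count of 0 was taken as 3 counts. Shares were taken after thinning to 1000 UMIs, which left out 3 MYH15-dominant, 3 other myosin-rich and 36 endothelial-like nuclei. The scripts were tested on simulated data. Python 3.11.15, numpy 2.4.6, scipy 1.17.1 and pandas 2.3.3 were used, with seed 1.

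The nuclei and the 20 gene lists (464 genes, 390 with a row) were chosen with earlier results of these data known. The text names the 15 highest and 15 lowest genes of at least 100 CPM against the other myosin-rich nuclei, 8 and 8 in the 2 closer comparisons, 6 and 6 between MYH3-led and MYH15-led nuclei, and up to 4 genes per list that reach 20 CPM, 117 genes in all, not every one of which is named; 1 of the 15 lowest genes is not reported here. Other list members were named after their values were seen, to account for counts. Alternatives numbered 13 planned and 1 added after seeing the data.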

Additional observations from a re-analysis of the deposited data

Results flagged for a closer look

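MYH15 was also seen outside the nuclei libraries compared above. In the library of whole EOM cells, which the comparisons do not use, it had 73 UMIs, or 5.96 CPM (exact Poisson 95% interval 4.67 to 7.49), above the 0.245 CPM that a count of 0 would allow. These UMIs lay in 32 of 8979 barcodes, and the highest barcode held 8, so none met the rule of 15. MYH13 had 83 UMIs there. Only 3 of the 6 chains have a row in that library, and a chain without a row was counted as 0. The count of 0 found for MYH7 may therefore stand for a missing row and is not read as absence. In QFM nuclei MYH15 had a UMI in 49 barcodes and the highest held 12.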

How the results depend on the processing

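Counts of genes past 2-fold were recomputed under 14 settings. Most stayed within 1.5 times the reported count, and those that did not came from the minimum count or from a tighter rule. With a minimum of 1 UMI in place of 20, 2613 of 23932 genes were higher against the other myosin-rich nuclei and 2192 of 23575 against MYH13-led nuclei. Against MYH15 and MYH7 nuclei 1277 of 19678 were higher and 2836 lower. Of 18386 genes 4631 were higher in MYH3-led than in MYH15-led nuclei. Because a count of 0 was taken as 3 counts, a gene with no UMI in the smaller set could be called higher in that set at this minimum. Such genes were not counted apart, so these counts are not read as differences. With a minimum of 100 UMIs, taken in the same order, 142 genes were higher and 434 lower of 13563, then 178 and 427 of 13113. The last comparisons gave 283 and 369 of 8835, and 77 and 213 of 7942. When MYH15 had to be at least 4 times MYH13, which left 487 nuclei, 575 genes were higher against the other myosin-rich nuclei and 479 against MYH15 and MYH7 nuclei. Under that setting FAM240B reversed to a log2 ratio of -0.17 and ADAM7 to 0.012, and PPP1R1C was at 0.74, against the other myosin-rich nuclei. The MYH3-led comparison was not run there (21 nuclei) or with at least 30 MYH15 UMIs (38 nuclei). Without called doublets and low-quality barcodes IGF1 was at -1.25 and MECOM, an endothelial gene, at -1.30, from -0.32 and -0.59. Over 117 named genes and 1638 alternative values, 61 genes were called, of which 2 turned sign and 23 fell under 2-fold in some setting, and 6 of the genes not called turned sign. Of 20 lists only the immediate early list moved its median by over 1.5-fold, to 0.63 after thinning. No paired analysis was possible because each group has 1 library. A depth of 4477 UMIs per nucleus limits genes below about 20 UMIs, where counting error alone can pass 2-fold.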
